A study of Homo sapiens with 12 samples.

Results

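The genes described here are 10 effectors of the integrated stress response in HL60 cells, a human myeloid leukaemia line: the transcription factors ATF4, ATF3, DDIT3 (also called CHOP) and NUPR1, the pseudokinase TRIB3, and CHAC1, PPP1R15A, SESN2, DDIT4 and GDF15. They were chosen by name as genes of the ATF4 and CHOP axis, and each matched 1 row of the 57820 genes in the deposited table. All 10 had a mean of at least 10 normalized reads and so were among the 23128 genes tested. The cells had been transduced with 1 of 2 vectors. The TFEB line carried pRRL-TFEBS211A-puro, which makes the S211A form of TFEB when doxycycline is present, and the EV line carried the empty vector pRRL-EV-puro. TFEB is a transcription factor of lysosomal and autophagy genes. The S211A exchange removes a serine that mTORC1 phosphorylates to hold TFEB in the cytoplasm. The 4 groups were TFEB doxycycline, TFEB vehicle, EV doxycycline and EV vehicle, with 3 biologically independent replicates each. The labels' treatment protocol lists doxycycline at 1 µg/ml for 48 h for every sample, vehicle included, so the groups were taken from the titles and the treatment label. The labels do not say whether a line was a pool of transduced cells or 1 clone.

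The integrated stress response starts with kinases that phosphorylate the translation factor eIF2α, which lowers most protein synthesis and favours translation of ATF4. ATF4 then raises genes of amino acid supply and redox balance, together with ATF3, DDIT3 and TRIB3, which shape or end the response, while PPP1R15A reverses it by dephosphorylating eIF2α. GDF15 is a secreted ligand of the TGFβ superfamily that many stressed cells release, and its receptor GFRAL, which signals through RET, is known from the hindbrain. In myeloid leukaemia cells the response is known as a route by which nutrient and mitochondrial stress reach growth and cell death.

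Promoter sequences from RefSeq (GRCh38.p14) were matched by symbol for 9 of the 10 genes, all but NUPR1. They are shown because each gene had a higher mean in TFEB doxycycline than in every control group. They also let letters bound by TFEB-like factors and by ATF4 partners be seen. No source used here names the build of the deposited table, and the positions are those of RefSeq. Each window ran from 250 bases before to 50 bases after an annotated start, and the 250 bases before it are printed 5′ to 3′ on the gene's strand. For genes with several starts the one listed first is given. The motifs searched on both strands were TCACGTGA (the CLEAR core of lysosomal genes, which contains the E-box), CACGTG (E-box), TGATGNAA (core of the CARE element of ATF4 and C/EBP proteins), TGACGTCA (CRE) and TGANTCA (TRE of AP-1 factors). Capitals mark every match.
ATF4, chr22:39520309-39520558, plus strand: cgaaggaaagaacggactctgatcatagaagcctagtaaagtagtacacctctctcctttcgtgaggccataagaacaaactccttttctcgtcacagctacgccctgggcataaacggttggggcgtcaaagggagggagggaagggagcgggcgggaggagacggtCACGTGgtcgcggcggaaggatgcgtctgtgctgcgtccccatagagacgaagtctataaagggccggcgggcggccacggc
DDIT3, chr12:57520515-57520764, minus strand: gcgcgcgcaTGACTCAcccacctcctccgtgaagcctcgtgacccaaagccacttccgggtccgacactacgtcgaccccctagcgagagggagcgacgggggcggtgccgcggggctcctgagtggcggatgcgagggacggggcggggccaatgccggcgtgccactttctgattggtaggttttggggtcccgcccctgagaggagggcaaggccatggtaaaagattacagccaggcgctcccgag
CHAC1, chr15:40953221-40953470, plus strand: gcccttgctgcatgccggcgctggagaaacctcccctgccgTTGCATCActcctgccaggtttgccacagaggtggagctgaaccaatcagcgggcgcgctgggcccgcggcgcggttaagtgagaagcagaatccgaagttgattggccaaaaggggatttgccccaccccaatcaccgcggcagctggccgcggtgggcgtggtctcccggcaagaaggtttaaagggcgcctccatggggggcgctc
PPP1R15A, chr19:48872171-48872420, plus strand: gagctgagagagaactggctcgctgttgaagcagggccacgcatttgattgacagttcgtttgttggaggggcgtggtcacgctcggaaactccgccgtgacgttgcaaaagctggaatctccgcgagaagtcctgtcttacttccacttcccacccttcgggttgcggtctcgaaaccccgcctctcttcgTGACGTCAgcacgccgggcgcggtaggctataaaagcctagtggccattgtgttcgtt
GDF15, chr19:18385908-18386157, plus strand: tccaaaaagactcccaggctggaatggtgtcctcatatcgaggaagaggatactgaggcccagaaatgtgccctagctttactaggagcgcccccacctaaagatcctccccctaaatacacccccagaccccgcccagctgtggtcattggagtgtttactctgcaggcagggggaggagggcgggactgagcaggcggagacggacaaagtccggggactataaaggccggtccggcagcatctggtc
ATF4 held CACGTG at positions -82 to -77 from its start, and this hexamer was in 7.26% of the 35116 promoters of the table. CHAC1 held TTGCATCA at -209 to -202 and ATF3, not printed, TGATGGAA at -191 to -184, a core found in 3.62% of promoters. PPP1R15A held TGACGTCA at -58 to -51, a motif of 1.85% of promoters, and DDIT3 held TGACTCA at -241 to -235, a motif of 7.71%. The full CLEAR core was in 0.98% of promoters and in 0 of the 9 matched genes. GDF15, TRIB3, SESN2 and DDIT4 had none of the 5 motifs in this window. These are matches of letters in 1 window per start, and binding was not measured.

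The libraries differed in depth and make-up, which bears on every value below. Recovered reads ranged from 4474007 to 22488047 per library. Totals of normalized reads were 15699991 to 21806236 in TFEB doxycycline, 7095077 to 12242929 in TFEB vehicle, 4012762 to 9918342 in EV doxycycline and 10372464 to 22302095 in EV vehicle. Mitochondrial genes held 13.3% to 17.9% of TFEB doxycycline libraries, 23.8% to 29.4% of TFEB vehicle, 26.2% to 33.1% of EV doxycycline and 21% to 26.5% of EV vehicle. Nuclear genes with a mean under 200 held 18.2% of EV doxycycline replicate 3, the shallowest library, and at most 11.1% of any other. The authors' values had been divided by 1 factor per library, and expressed genes as a whole still differed between libraries after it. Results are therefore given on that deposited scale and on an expressed-gene scale, which makes 7290 nuclear genes with means of 200 or more have the same median ratio in all libraries. TFEB itself had 17468, 22629 and 14470.4 normalized reads in TFEB doxycycline libraries. It had 105 to 149 in TFEB vehicle, 79.8 to 127 in EV doxycycline and 110.4 to 196 in EV vehicle, so the induced libraries stood apart as labelled.

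All 10 effectors had a higher mean in TFEB doxycycline than in each control group. Against TFEB vehicle GDF15, NUPR1, PPP1R15A and DDIT3 were furthest apart and ATF4 and DDIT4 least. On the deposited scale 9 of the 10 rose in TFEB doxycycline against TFEB vehicle and 0 fell (limma, Benjamini-Hochberg adjusted p under 0.05). Of all genes tested, 17.4% were called higher and 4.66% lower in that comparison. The one that missed the threshold was ATF4. All 10 rose on the expressed-gene scale, where 14.4% of all genes were called higher and 20.7% lower. The median log2 change was 2.66 over the 10 effectors, -0.00 over all genes tested and 0.73 over the expressed genes on the deposited scale. These medians were 1.91, -0.72 and -0.02 on the expressed-gene scale. Against EV doxycycline all 10 rose, where 27.2% of all genes were called higher and 5.37% lower. Against EV vehicle 8 rose, all but ATF4 and DDIT4, where 12.2% of all genes were called higher and 8.51% lower. The call of CHAC1 against EV vehicle (log2 change 1.21, limma adjusted p = 0.0471) was lost with edgeR, DESeq2, no variance trend, a pseudocount of 0.5 and no filter, and in 8 of the 12 fits that left out 1 library. Those comparisons share the TFEB doxycycline libraries. All 10 rose in both comparisons on the expressed-gene scale, where 14.2% of all genes were called higher and 57.5% lower against EV doxycycline, and 15.9% higher and 16.2% lower against EV vehicle. Against each of the 3 control groups at once 8 effectors, CHAC1 with that call among them, were called higher and 0 lower on the deposited scale, where 10.7% of all genes were called higher and 1.35% lower, and 10 were called higher and 0 lower with expressed-gene scaling, where 11.7% of all genes were called higher and 13.8% lower. In every TFEB doxycycline library the value lay above all 9 control libraries for 8 of the 10 genes on the deposited scale, against 13.6% of genes tested. The exceptions were ATF4 and CHAC1. With the other scaling this held for all 10, against 12.5% of genes tested.

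**Figure D1:**
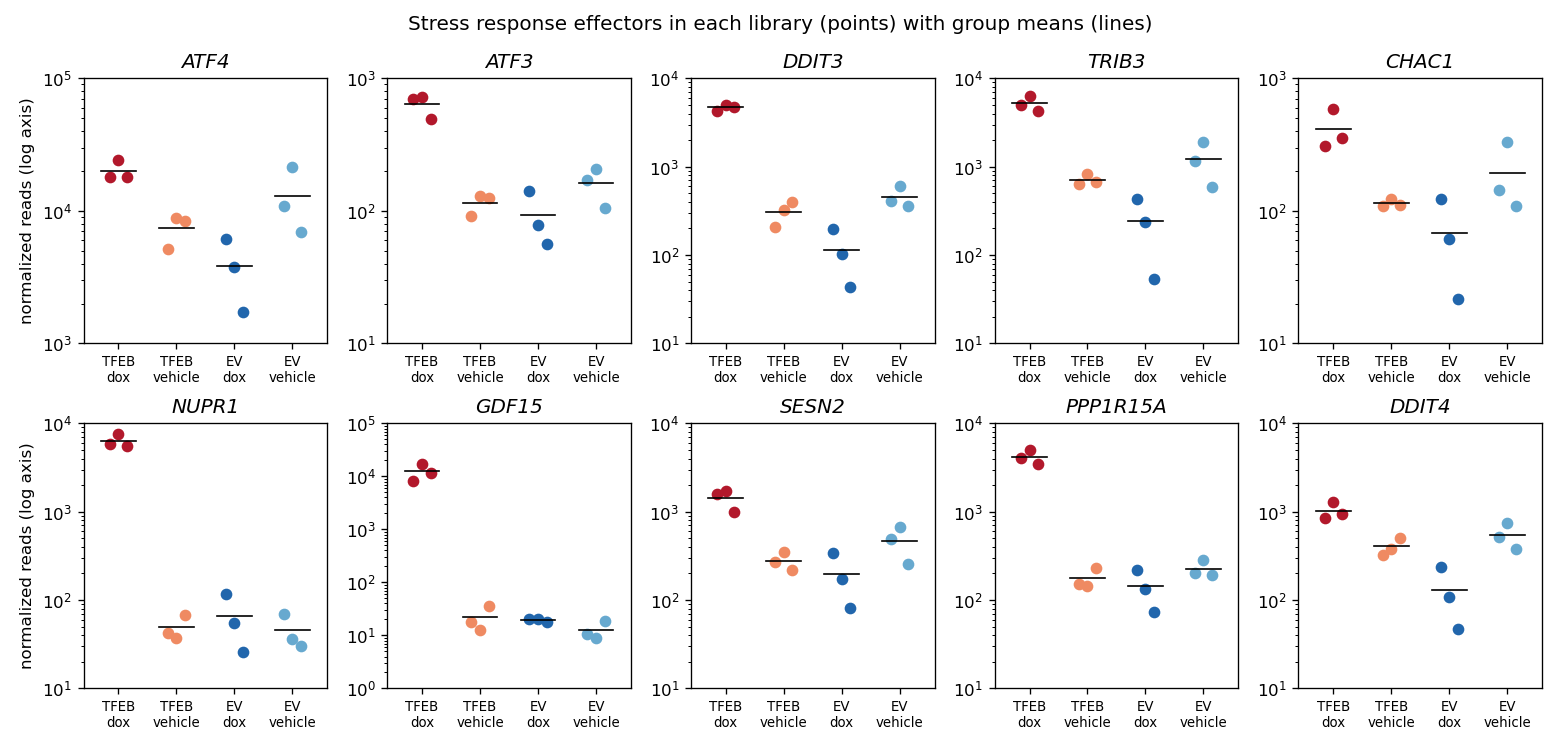
Normalized reads (log axis) of the 10 effectors in each of 12 libraries, with a line at the mean of each group of 3. The TFEB doxycycline points stand above all control points for 8 genes, and for ATF4 and CHAC1 an EV vehicle library reaches into their range.

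ATF4, the bZIP activator at the head of the response, had 17892, 24242 and 17879 normalized reads in TFEB doxycycline libraries. Its values were 5128, 8840.2 and 8330 in TFEB vehicle, 6103, 3742 and 1718 in EV doxycycline and 10870.2, 21363 and 6891 in EV vehicle. All 3 TFEB doxycycline libraries were above all TFEB vehicle libraries, but EV vehicle replicate 2 lay within the induced range. The log2 change against TFEB vehicle was 1.45 ± 0.59 (standard error, n = 3 per group), with a limma adjusted p of 0.0725. It was 0.70 ± 0.16 on the expressed-gene scale, with an adjusted p of 0.00208. ATF4 also passed on the deposited scale with DESeq2, a minimum mean of 50, no variance trend and the compared groups alone, and it missed with edgeR, so the call depended on scaling and test settings. As a share of its library, in CPM (recovered reads at a common library total), ATF4 was 1100.2 ± 46.3 in TFEB doxycycline, 731 ± 55.1 in TFEB vehicle, 517 ± 93.9 in EV doxycycline and 813 ± 147 in EV vehicle (SD, n = 3 each). In these shares no control library reached a TFEB doxycycline library, the nearest being EV vehicle replicate 2 at 958 against a lowest induced value of 1049. ATF4 pseudogenes are in the table too, and how reads were divided between such copies is not given. ATF4P3, the highest of them, averaged 20.1 normalized reads and never passed 41.7.

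ATF3, a bZIP factor that mostly represses and is induced by ATF4, had 697, 719.8 and 493 normalized reads in TFEB doxycycline libraries. It had 91.3, 129 and 125 in TFEB vehicle, 142, 78.8 and 56.5 in EV doxycycline and 172, 208 and 105 in EV vehicle. The lowest induced library was above the highest control library by more than the spread within any group. Against TFEB vehicle ATF3 changed by a log2 of 2.45 ± 0.40 (limma adjusted p = 4.37e-06), and 1.70 ± 0.22 on the expressed-gene scale (8.05e-06).

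DDIT3 encodes CHOP, a C/EBP-family factor tied to cell death after prolonged stress. It had 4306, 5044 and 4713 normalized reads in TFEB doxycycline libraries, 209, 319.8 and 396 in TFEB vehicle, 198, 102 and 43.1 in EV doxycycline and 411, 607 and 363 in EV vehicle. Induced libraries stood far above all others, and the 3 of them differed little among themselves. The log2 change against TFEB vehicle was 3.97 ± 0.49, a fold of 15.6 (limma adjusted p = 1.58e-08). Expressed-gene scaling gave 3.22 ± 0.17, a fold of 9.31 (limma adjusted p = 3.97e-10).

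NUPR1, a small chromatin-associated stress protein and transcriptional coregulator, had 5829, 7554 and 5549 normalized reads in TFEB doxycycline libraries. It had 42.9, 37 and 68.5 in TFEB vehicle, 116, 55.4 and 26 in EV doxycycline and 69.1, 36.7 and 30 in EV vehicle. The control values came from 29 to 137 recovered reads per library, so they are known less closely than the induced ones. Against TFEB vehicle NUPR1 changed by a log2 of 7.00 ± 0.43 (limma adjusted p = 1.8e-17), a fold of 128 on the log2(value + 1) scale. The fold was 76.5 on the expressed-gene scale.

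TRIB3, a pseudokinase that binds ATF4 and CHOP and restrains them and that also binds the kinase AKT, had 5051, 6374 and 4275 normalized reads in TFEB doxycycline libraries. Its values were 642, 824 and 671 in TFEB vehicle, 429, 239.9 and 53.8 in EV doxycycline and 1172, 1894 and 597 in EV vehicle. Induced and control libraries did not overlap, and EV doxycycline replicate 3 was the lowest of all. Against TFEB vehicle TRIB3 changed by a log2 of 2.86 ± 0.57 (limma adjusted p = 0.000143), and 2.12 ± 0.29 on the expressed-gene scale (1.59e-05).

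CHAC1, which breaks down glutathione in the cytosol and is a target of ATF4 and CHOP, had 307, 584 and 356 normalized reads in TFEB doxycycline libraries. It had 108, 124 and 110.3 in TFEB vehicle, 123, 61.2 and 21.5 in EV doxycycline and 144, 332 and 108 in EV vehicle. EV vehicle replicate 2 again lay inside the induced range, and every other control library below it. Against TFEB vehicle CHAC1 changed by a log2 of 1.80 ± 0.44 (limma adjusted p = 0.00192), and 1.06 ± 0.26 on the expressed-gene scale (0.00408).

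PPP1R15A encodes GADD34, the stress-induced subunit that directs protein phosphatase 1 to eIF2α. It had 4066, 4943 and 3498 normalized reads in TFEB doxycycline libraries, 153, 145 and 229 in TFEB vehicle, 221, 134 and 72.6 in EV doxycycline and 203, 282 and 192 in EV vehicle. All 3 control groups overlapped and lay far below the induced libraries. Against TFEB vehicle PPP1R15A changed by a log2 of 4.57 ± 0.45, a fold of 23.8 (limma adjusted p = 5.23e-11). Expressed-gene scaling gave 3.83 ± 0.19, a fold of 14.2 (limma adjusted p = 2.36e-10).

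SESN2 and DDIT4 encode 2 stress-induced inhibitors of mTORC1, sestrin 2, which senses leucine, and REDD1, which acts through the TSC complex. SESN2 had 1605, 1698 and 998 normalized reads in TFEB doxycycline libraries, 270.3, 354 and 217 in TFEB vehicle, 341, 171 and 81.6 in EV doxycycline and 487, 676 and 254 in EV vehicle. The groups did not overlap with the induced one, and its log2 change against TFEB vehicle was 2.34 ± 0.49 (limma adjusted p = 0.000271; 1.59 ± 0.26 and 0.000103 on the expressed-gene scale). DDIT4 had 849.8, 1289 and 947 normalized reads in TFEB doxycycline libraries, 325, 383 and 509.6 in TFEB vehicle, 238, 109 and 46.6 in EV doxycycline and 512, 748 and 379 in EV vehicle. Its induced libraries were all above the controls, but the margin was small. The log2 change of DDIT4 against TFEB vehicle was 1.34 ± 0.49 (limma adjusted p = 0.0408) and 0.59 ± 0.19 on the expressed-gene scale (0.0228). That call was lost in 8 of the 12 fits that left out 1 library on the deposited scale, with adjusted p up to 0.173 in limma, and in 3 of 12 on the expressed-gene scale, with adjusted p up to 0.108 (TFEB doxycycline replicate 2 or 3 or TFEB vehicle replicate 2 dropped). The 8 on the deposited scale were those without any 1 of the TFEB doxycycline or TFEB vehicle libraries, and those that dropped replicate 1 of EV vehicle or replicate 2 of EV doxycycline.

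GDF15, the secreted ligand, was the effector furthest from its controls. It had 8286, 17404 and 11552 normalized reads in TFEB doxycycline libraries, 18.3, 12.9 and 35.8 in TFEB vehicle, 20.4, 20.1 and 17.9 in EV doxycycline and 10.5, 8.93 and 18.4 in EV vehicle. The highest control library was thus far below the lowest induced one, and the controls rested on 9 to 36 recovered reads per library, against 7908 to 16176 in induced libraries. The log2 change against TFEB vehicle was 9.11 ± 0.36 (limma adjusted p = 1.58e-23) and 8.37 ± 0.47 on the expressed-gene scale (6.18e-10), folds of 554 and 331 on the log2(value + 1) scale. In shares of the library GDF15 was 668 ± 135 CPM in TFEB doxycycline, 2.21 ± 0.939 in TFEB vehicle, 3.09 ± 1.25 in EV doxycycline and 0.988 ± 0.708 in EV vehicle (SD, n = 3 each).

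The effectors were also set against ATF4 itself. Expressed per 100 ATF4 reads of the same library, a ratio that no library scaling can alter, GDF15 stood at 46.3, 71.8 and 64.6 in TFEB doxycycline libraries. The same ratio was 0.145 to 0.429 in TFEB vehicle, 0.334 to 1.04 in EV doxycycline and 0.0418 to 0.267 in EV vehicle. The mean ratio in TFEB doxycycline over that in TFEB vehicle was 196 for GDF15, 45.6 for NUPR1, 8.48 for PPP1R15A, 5.72 for DDIT3 and 2.62 for TRIB3. For these 5 genes all 3 induced libraries were above all 9 control libraries. It was 2.03 for ATF3, 1.82 for SESN2, 1.27 for CHAC1 and 0.915 for DDIT4, and for these 4 genes the ratios of induced and control libraries overlapped. DDIT4 thus had 4.75, 5.32 and 5.29 reads per 100 ATF4 reads in TFEB doxycycline and 6.34, 4.34 and 6.12 in TFEB vehicle. The ratios are given as values and were not tested. How many of all genes would separate from the controls in such a ratio was not counted.

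**Figure D2:**
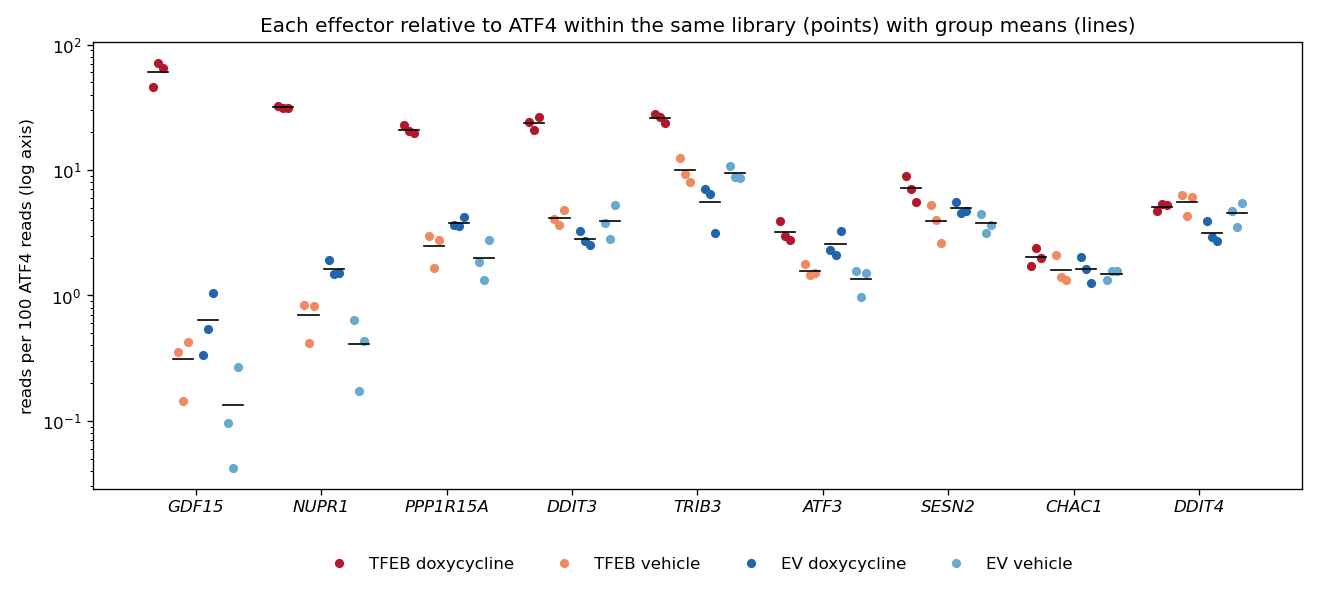
Reads of 9 effectors per 100 ATF4 reads in the same library (log axis), in the order GDF15, NUPR1, PPP1R15A, DDIT3, TRIB3, ATF3, SESN2, CHAC1 and DDIT4, with a line at each group mean. The TFEB doxycycline points separate from all controls for the first 5 genes on the axis and mix with them for the rest, ending at DDIT4 with 5.12 in TFEB doxycycline and 5.60 in TFEB vehicle. The share of all genes that would separate in this ratio was not counted.

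In the EV line doxycycline was added with no TFEB insert, and the effectors did not rise as a group. On the deposited scale 6 of the 10 fell in EV doxycycline against EV vehicle (ATF4, DDIT3, TRIB3, CHAC1, SESN2 and DDIT4) and 0 rose in limma, also at an unadjusted p under 0.05. Of all genes tested, 23.3% were called lower and 3.39% higher, so falls were common there. On the expressed-gene scale 4 fell (ATF4, DDIT3, TRIB3 and DDIT4) and 3 rose (NUPR1, GDF15 and PPP1R15A), where 5.82% of all genes were called lower and 43.9% higher. These shares rest on single libraries: the 10162 genes called higher on that scale became 1945 when EV doxycycline replicate 3 was dropped and 1208 when EV vehicle replicate 2 was. The 5396 called lower on the deposited scale became 1530 and 377 in those fits. The median log2 change was -1.50 over the effectors, -0.19 over all genes and -1.29 over the expressed genes on the deposited scale, and -0.23, 1.04 and -0.01 on the expressed-gene scale. ATF4, DDIT3, TRIB3 and DDIT4 were the 4 called lower under each of 5 scalings. In 4 of 10 genes all EV doxycycline libraries lay below all EV vehicle libraries, on the deposited scale (26.3% of genes tested) as on the expressed-gene scale (7.73%).

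TRIB3 had the largest fall, by 2.62 ± 0.57 on the log2 scale (limma adjusted p = 0.00333), or by 1.35 ± 0.29 on the expressed-gene scale (0.00556). Its ratio to ATF4 was also lower, at 7.03, 6.41 and 3.13 per 100 ATF4 reads in EV doxycycline against 10.8, 8.87 and 8.66 in EV vehicle. DDIT4 fell by 2.29 ± 0.49 (adjusted p = 0.0026 in limma) or by 1.01 ± 0.19 (0.0025), and DDIT3 by 2.22 ± 0.49 (0.00369) or by 0.94 ± 0.17 (0.002). These 3 falls passed the threshold whichever of the 12 libraries was left out, on both scales. ATF4 fell by 1.78 ± 0.59 (adjusted p = 0.0266 in limma) or by 0.50 ± 0.16 (0.0248). On the deposited scale the falls of ATF4 and SESN2 were each lost in 4 of the 12 fits that left out 1 library, and that of CHAC1 in 2. The fall of ATF4 on the expressed-gene scale was lost in 4 of 12 fits too, with adjusted p up to 0.129 in limma, and these left out the same libraries. Those of ATF4 and SESN2 were lost without EV doxycycline replicate 2 or 3 or EV vehicle replicate 1 or 2, and that of CHAC1 without EV doxycycline replicate 3 or EV vehicle replicate 2. Leaving out EV doxycycline replicate 3 or EV vehicle replicate 2, 3 falls were called in place of 6, and without EV doxycycline replicate 1 there were 8. The rises of GDF15 (1.84 ± 0.47, adjusted p = 0.0127 in limma) and NUPR1 (1.63 ± 0.35, 0.00555) on the expressed-gene scale rest on 20 to 24 GDF15 reads and 29 to 137 NUPR1 reads per EV doxycycline library. That of GDF15 was lost when EV vehicle replicate 2 was dropped, and that of PPP1R15A held in 4 of 12 such fits. The median log2 change on that scale was 1.04 over all genes tested and -0.01 over the expressed genes. The part of this shift in the rises of these 3 effectors was not tested.

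**Figure D3:**
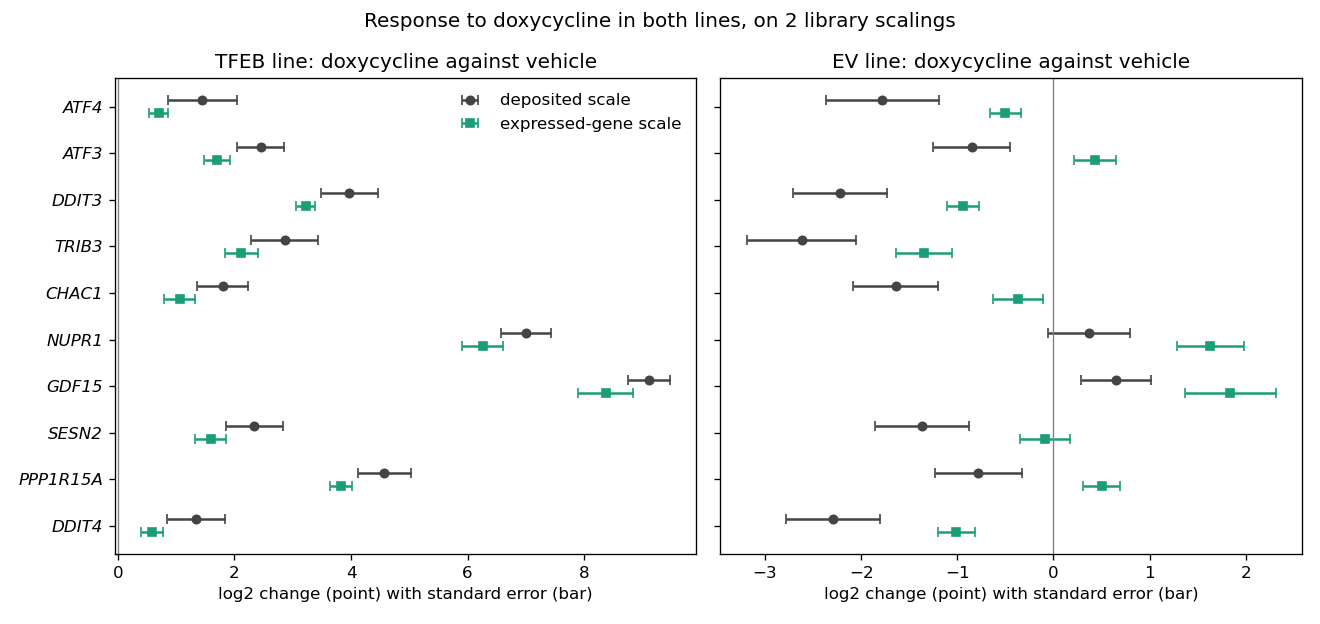
Log2 change (point) with its standard error (bar) for doxycycline against vehicle in the TFEB line (left) and the EV line (right), with 1 row per effector and 2 library scalings. All effectors lie above 0 in the TFEB line on both scales, while in the EV line ATF4, DDIT3, TRIB3, CHAC1, SESN2 and DDIT4 lie below 0 on both, NUPR1 and GDF15 above it, and ATF3 and PPP1R15A change sign with the scaling.

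The difference between the lines was tested as the interaction of vector and doxycycline, and all 10 effectors had a higher response in the TFEB line on both scales. Of all genes tested, 29.2% were called higher and 6.15% lower in this test on the deposited scale, and 11% higher and 57.7% lower on the expressed-gene scale. The difference was 8.46 ± 0.51 for GDF15, 6.63 ± 0.60 for NUPR1 and 6.19 ± 0.70 for DDIT3 on the deposited log2 scale, and 6.53 ± 0.66, 4.63 ± 0.49 and 4.16 ± 0.24 on the expressed-gene scale. For ATF4 it was 3.24 ± 0.83 (limma adjusted p = 0.00268) or 1.20 ± 0.23 (0.000667). For ATF4, TRIB3, DDIT3 and DDIT4 both a higher value in the TFEB line and a lower one in the EV line enter this difference. The same holds for CHAC1 and SESN2 on the deposited scale, where both were called lower in EV doxycycline. Between the lines without doxycycline, TFEB vehicle against EV vehicle, 0 of the 10 effectors were called by limma, edgeR or DESeq2, and 0 had an unadjusted p under 0.05 in any of the 3 on the deposited scale. In limma 0% of all genes were called in that comparison, on either scale. On the expressed-gene scale 2 effectors had an unadjusted limma p under 0.05, both higher in TFEB vehicle. The same held for 2004 of the 23128 genes tested, and 13 were lower at that threshold. With TMM factors 1 effector was higher at an unadjusted p under 0.05, with equal library totals 1 and with equal upper quartiles 2.

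Within the induced group every effector was highest in TFEB doxycycline replicate 2 on the deposited scale. That library had the largest normalized total of its group, 21806236. GDF15, CHAC1, DDIT3, DDIT4 and CTH were lowest in replicate 1 on this scale. On the expressed-gene scale GDF15, CHAC1 and DDIT4 kept this order, while DDIT3 was lowest in replicate 2. The 5 genes most like GDF15 across the 12 libraries, by Pearson r of log2(value + 1) among the 12060 genes that averaged 50 or more, were SLAMF7, BHLHE41, UPP1, DDX39BP2 and RHBDF1 on the deposited scale, with r of 0.997 to 0.998. With expressed-gene scaling they were SLAMF7, UPP1, ATP6V0D2, BHLHE41 and RP11-369K17.1, at 0.996 to 0.997. The 12 points fall into the induced libraries and the rest, so such an r says mainly that a gene shares this step. For ATF4 the closest were TMEM183A, RAP1B, YARS, STUB1 and ESD on the deposited scale (0.996 to 0.998) and TMEM183A, YARS, STUB1, TUBA1C and CLN6 on the expressed-gene scale (0.980 to 0.992). ATF4 had an r of 0.98 with the library's normalized total on the deposited scale and 0.82 on the expressed-gene scale, and GDF15 0.52 and 0.37. The part of library depth in the ATF4 values was not tested.

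Among the kinases, subunits and phosphatases that switch the response, 4 of 21 rose and 0 fell in TFEB doxycycline against TFEB vehicle on the deposited scale, and 5 rose and 6 fell on the expressed-gene scale. The list's median log2 change was 0.51 and -0.24, where that of the expressed genes was 0.73 and -0.02. Of all genes tested, 17.4% were called higher and 4.66% lower on the deposited scale, and 14.4% and 20.7% on the other. Rises on the deposited scale were thus about as common in this list as over all genes. EIF2B2, a subunit of the exchange factor that phosphorylated eIF2 blocks, had 368 ± 78.5 normalized reads in TFEB doxycycline and 101 ± 29.9 in TFEB vehicle (SD, n = 3 each), a log2 change of 1.87 ± 0.38 (limma adjusted p = 0.000175). EIF2S2 (eIF2β) changed by 1.86, PPP1CB, a catalytic subunit that PPP1R15A binds, by 1.71, and DNAJC3, a co-chaperone that inhibits eIF2α kinases, by 1.47. These 4 also rose on the expressed-gene scale. Of the 4 eIF2α kinases, EIF2AK2 (PKR) rose there by 0.47 ± 0.14 (limma adjusted p = 0.0173), EIF2AK1 (HRI) and EIF2AK4 (GCN2) fell by 0.95 and 0.47, and EIF2AK3 (PERK), at 0.25, did not pass. They are named after their values were seen.

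The paralogs of the effectors mostly did not follow them. Of 10, 9 were tested, with NUPR1L under the minimum at 3.97 ± 3.23 normalized reads in TFEB doxycycline and 5.52 ± 4.14 in TFEB vehicle. On the deposited scale 1 rose and 1 fell (median -0.04), and on the expressed-gene scale 2 rose and 4 fell (median -0.79). The shares over all genes are those given for the kinase list. TRIB2, a paralog of TRIB3, had 225, 272 and 209 normalized reads in TFEB doxycycline and 68.5, 68.3 and 67.5 in TFEB vehicle, a log2 change of 1.77 ± 0.35 (limma adjusted p = 0.000115). SESN3, a paralog of SESN2, had 97.5, 133 and 127 in TFEB doxycycline and 166, 358 and 377 in TFEB vehicle, a log2 change of -1.25 ± 0.45 (limma adjusted p = 0.0403). The induced libraries of both genes lay outside the TFEB vehicle range. ATF5, the bZIP factor closest to ATF4, had 6935, 11340.3 and 7614 in TFEB doxycycline and 6146, 10671 and 9975 in TFEB vehicle, which overlap. Its log2 change was -0.04 ± 0.60 (limma adjusted p = 0.969), and -0.79 ± 0.19 on the expressed-gene scale (0.00292). PPP1R15B, the constitutive counterpart of PPP1R15A, changed by 1.34 ± 0.57 (limma adjusted p = 0.0874), or by 0.60 ± 0.18 on the expressed-gene scale (0.0156). CHAC2 changed by -0.63, JDP2 by -0.34, DDIT4L by -0.31, TRIB1 by 0.58 and SESN1 by 0.26 on the deposited log2 scale, and none of these passed in limma. CHAC2 (-1.35) and JDP2 (-1.08) were called lower on the expressed-gene scale.

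Dimer partners of these bZIP factors form another list. Of 25 bZIP genes that can pair with ATF4, ATF3 or CHOP, 15 rose and 2 fell against TFEB vehicle on the deposited scale (median log2 change 1.48), and 15 rose and 6 fell on the expressed-gene scale (median 0.74). Over all genes the shares called were 17.4% higher and 4.66% lower on the deposited scale, and 14.4% and 20.7% on the other. MAFF, a small MAF protein, had 1029, 1452 and 1016 normalized reads in TFEB doxycycline and 31, 28.9 and 39.7 in TFEB vehicle. Its groups were far apart, with a log2 change of 5.08 ± 0.32 (limma adjusted p = 4e-17). The AP-1 subunits FOS, FOSB and FOSL1 changed by 3.63, 3.16 and 3.14, with adjusted p from 2.16e-10 to 1.15e-07 in limma. The 2 that fell were CEBPE (-2.03) and CEBPD (-1.37), C/EBP factors of myeloid cells, named after their values were seen.

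Of 38 other targets of ATF4 or CHOP, 16 rose and 1 fell against TFEB vehicle on the deposited scale (median log2 change 1.16), and 17 rose and 6 fell on the expressed-gene scale (median 0.42). The shares over all genes are those given for the bZIP list. HMOX1, heme oxygenase 1, had 674, 989.9 and 621 normalized reads in TFEB doxycycline and 27.4, 17.7 and 27.8 in TFEB vehicle, a log2 change of 4.91 ± 0.32 (limma adjusted p = 1.29e-16). CTH, cystathionine γ-lyase of cysteine synthesis, had 2138, 4771 and 3349 in TFEB doxycycline and 216, 272 and 312 in TFEB vehicle, a log2 change of 3.62 ± 0.49 (limma adjusted p = 9.5e-08). For both genes the induced libraries lay far above the controls. The angiogenic factor VEGFA changed by 3.55 and GARS, glycyl-tRNA synthetase, by 3.42. The 1 that fell was PYCR1, an enzyme of proline synthesis, at -1.30 ± 0.41 (limma adjusted p = 0.0173), named after its value was seen. In EV doxycycline against EV vehicle 30 of these 38 targets fell and 0 rose in limma on the deposited scale (median -1.79), and 21 fell and 2 rose on the expressed-gene scale (median -0.51). Over all genes 23.3% fell and 3.39% rose on the deposited scale, with a median of -1.29 over expressed genes, and 5.82% fell and 43.9% rose on the other. GARS, for example, had 2726, 1379.7 and 840.4 normalized reads in EV doxycycline against 5755, 9101 and 4347 in EV vehicle.

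**Figure D4:**
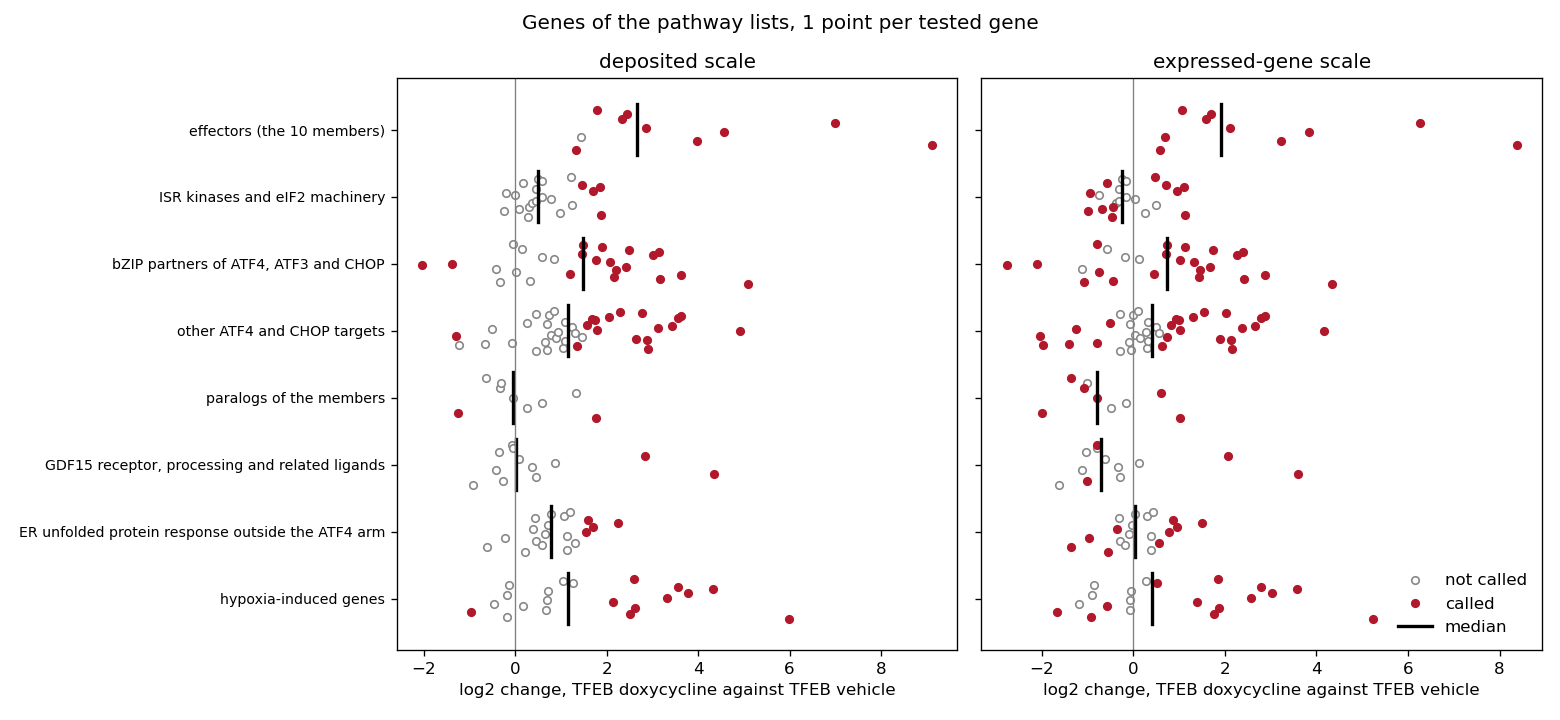
Log2 change in TFEB doxycycline against TFEB vehicle for each tested gene of the effector set and of 7 related lists, on the deposited scale (left) and the expressed-gene scale (right), where filled points passed the limma threshold and black lines mark list medians. The effectors have a median of 2.66 on the left and 1.91 on the right, and the kinase and eIF2 list one of 0.51 and -0.24.

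Rises among the receptor, processing and related ligand genes of GDF15 were about as common as over all genes. Of these 12 genes, 2 rose and 0 fell on the deposited scale (median log2 change 0.02), and 2 rose and 2 fell on the expressed-gene scale (median -0.70). Over all genes tested, 17.4% were called higher and 4.66% lower on the first scale, and 14.4% and 20.7% on the second. The 2 that fell were RET, through which the receptor signals, and the protease PCSK7, named after their values were seen. The 2 that rose on both were ligands of the same superfamily. TGFB2 had 772 ± 56.6 normalized reads in TFEB doxycycline and 37.5 ± 6.74 in TFEB vehicle, a log2 change of 4.34 ± 0.31 (limma adjusted p = 2.06e-15). TGFB1 changed by 2.83 ± 0.60 (limma adjusted p = 0.000319).

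Of 19 genes of the ER unfolded protein response outside the ATF4 arm, 4 rose and 0 fell on the deposited scale (median log2 change 0.79), and 5 rose and 4 fell on the expressed-gene scale (median 0.05). Over all genes tested, 17.4% were called higher and 4.66% lower on the first scale, and 14.4% and 20.7% on the second. The expressed genes had medians of 0.73 and -0.02, close to those of this list. The ER co-chaperone DNAJB9 changed by 2.25 ± 0.41 (limma adjusted p = 3.69e-05), the chaperone HSPA5 by 1.71, the sensor ATF6 by 1.60 and DNAJB11 by 1.54. Of 20 hypoxia-induced genes, 9 rose and 1 fell on the deposited scale (median 1.15), and 10 rose and 3 fell on the expressed-gene scale (median 0.41). EPAS1, which encodes HIF-2α, changed by 5.98 ± 0.37 (limma adjusted p = 2.15e-17), NDRG1 by 4.33 and hexokinase HK2 by 3.78, and VEGFA, given above, is on this list too. The lists share some genes, and they are described by counts without a test of the list.

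Markers of the cells were read beside the effectors. The 8 promyelocyte markers summed to 509 to 705 CPM in TFEB doxycycline, 6422 to 8746 in TFEB vehicle, 1345 to 3263 in EV doxycycline and 6568 to 9945 in EV vehicle. The sum was thus lowest in the libraries where the effectors were highest, and it was low in EV doxycycline too. MPO made up most of it, with a mean of 48304 normalized reads over the 12 libraries, against 2522 for ELANE, the next marker. Of these markers 4 of 8 fell and 0 rose in TFEB doxycycline against TFEB vehicle on the deposited scale, and 7 fell and 0 rose on the expressed-gene scale. Over all genes 4.66% and 20.7% fell on these scales. Against EV doxycycline 0 fell and 1 rose (ELANE) on the deposited scale, and 7 fell and 1 rose on the other, where 5.37% and 57.5% of all genes fell. The 8 monocyte and macrophage markers summed to 527 to 564 CPM in TFEB doxycycline, 366 to 557 in TFEB vehicle, 202 to 298 in EV doxycycline and 398 to 629.7 in EV vehicle. Of these, 3 rose (CD68, CD163 and MARCO) and 3 fell (CSF1R, FCGR1A and LYZ) in TFEB doxycycline against TFEB vehicle, on both scales. Over all genes 17.4% rose on the deposited scale and 14.4% on the other, and the shares that fell are given above. The 2 most abundant, LYZ and MARCO, with means of 3149 and 2169.5 normalized reads over the 12 libraries, thus moved in opposite directions within the sum. Lymphoid markers summed to 60.4 to 69 in TFEB doxycycline, 20.5 to 34.8 in TFEB vehicle, 33.8 to 59 in EV doxycycline and 17.3 to 23.3 in EV vehicle. In TFEB doxycycline NKG7 alone held a mean of 57.7 CPM, against 7.86 in TFEB vehicle, while CD79A and GNLY fell (list median log2 change -0.58). Erythroid and megakaryocyte markers summed to 4.02 to 5.54 in TFEB doxycycline, 8.28 to 14.7 in TFEB vehicle, 11.1 to 31.3 in EV doxycycline and 2.58 to 8.87 in EV vehicle. For epithelial and fibroblast markers the sums were 12 to 19.9 in TFEB doxycycline, 23.1 to 46.5 in TFEB vehicle, 29.8 to 105 in EV doxycycline and 8.85 to 29 in EV vehicle. These last 3 sums stayed below both myeloid sums in every group. No listed marker was at 0 in all libraries of a group. The part of a change in cell state in the effector values was not tested, and in bulk RNA fewer cells of a type and less RNA per cell cannot be told apart.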

How the data were processed

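The deposited table gives a normalized signal value for every gene in every library. STAR 2.5.3a and HTSeq 0.6.1 are named in the submitters' processing notes. No source used here names the build, annotation or strand setting, which leaves antisense genes and near-identical copies uncertain. The values show that the authors scaled whole reads by a single factor in each library: 100% were whole multiples of 1 step per library at a tolerance of 0.01. For EV vehicle replicate 2 and for TFEB vehicle replicate 3 that step was within 1% of 1, so normalized and recovered reads are nearly alike there. ATF4 in EV vehicle replicate 2, for example, had 21363 normalized and 21541 recovered reads.

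Genes averaging at least 10 were tested on log2(value + 1) by limma 3.58.1 (R 4.3.3). One model covered the 12 libraries and 4 groups with a variance trend. Tests were two-sided, and p was adjusted by Benjamini-Hochberg over all 23128 genes with a threshold of 0.05. This scale understates the change of genes with few reads. TFEB doxycycline was compared with each control group, EV doxycycline and TFEB vehicle each with EV vehicle, and the response to doxycycline between the lines (interaction). Replicates differed by more than counting error, at a chi-square of 11.2 to 38.3 per degree of freedom in 12 pairs, so p-values rest on the spread between replicates.

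Alternatives were 2 pseudocounts, 2 filters, 4 scalings, no variance trend, the compared groups alone, a replicate block, each library left out, and edgeR 4.0.16 and DESeq2 1.42.0 on recovered reads with the deposited factors as offsets. Leaving out libraries and the block on the expressed-gene scale were added after seeing the data. The named genes were TFEB, the effectors, their paralogs, up to 4 called genes per list with the largest change (in lists with fewer than 2 called, the 2 most abundant), and the 5 genes most like GDF15 and ATF4. The members and lists were chosen with earlier results of these data known, so the lists support nothing by themselves. A further gene that this naming rule covers, which is no effector, and 1 list are not reported here. The procedure was tested on simulated data.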

Additional observations from a re-analysis of the deposited data

Results flagged for a closer look

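For all 10 effectors the response to doxycycline differed between the TFEB line and the EV line by a test of the difference itself, the interaction of vector and doxycycline in limma. As log2 differences on the deposited scale, TFEB line minus EV line, the values were 8.46 for GDF15, 6.63 for NUPR1, 6.19 for DDIT3, 5.49 for TRIB3 and 5.35 for PPP1R15A. They were 3.71 for SESN2, 3.63 for DDIT4, 3.44 for CHAC1, 3.30 for ATF3 and 3.24 for ATF4. The adjusted p ranged from 8.52e-17 for GDF15 to 0.00268 for ATF4. With expressed-gene scaling the difference was 1.20 for ATF4, 1.43 for CHAC1 and 6.53 for GDF15, and each still passed the threshold. The share of all genes called higher in this test was 29.2% on the deposited scale. Groups of 3 libraries are too small for a check of single outlying libraries.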

How the results depend on the processing

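The counts of effectors called in TFEB doxycycline kept within 1.5 times of the reported ones under every alternative run. Leaving out 1 library gave 8 to 10 rises against TFEB vehicle, 10 against EV doxycycline, 6 to 8 against EV vehicle, 6 to 8 against each of the 3 controls and 10 in the interaction. ATF4 passed against TFEB vehicle in 2 of those 12 fits, without EV doxycycline replicate 1 or 3 (adjusted p 0.0113 to 0.238 in limma over the 12). The DDIT4 log2 change in TFEB doxycycline against TFEB vehicle missed the threshold with no filter on low values (limma adjusted p = 0.0529) and with equal library totals (0.0675). In EV doxycycline against EV vehicle, rises numbered 0 on the deposited scale, 2 with TMM factors, equal totals or equal upper quartiles, and 3 on the expressed-gene scale. Leaving out 1 library gave 3 to 8 falls, and with expressed-gene scaling 3 to 5 falls and 1 to 3 rises. With that scaling PPP1R15A reversed to 0.50, called (limma adjusted p = 0.0446), but with 1 library left out it ranged over 0.34 to 0.63 (adjusted p up to 0.211) and was called in 4 of 12 fits, at 0.50 to 0.63. SESN2 reversed to 0.01 when EV doxycycline replicate 3 was left out, and to 0.09 when EV vehicle replicate 1 was. The cause was not tested.

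The main model did not pair libraries by replicate number, although libraries of the same number tended to be alike. Of 18 same-number pairs 14 correlated above 0.1, over a range of -0.22 to 0.72, and 10 of 12 libraries correlated best with their own number. With the replicate block 9 effectors rose against TFEB vehicle and 6 fell in EV doxycycline, as without it. The block with expressed-gene scaling gave 3 rises in EV doxycycline, with PPP1R15A at 0.50.

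Counts over all genes moved more. On recovered reads edgeR called 4170 genes higher and 1021 lower in TFEB doxycycline against TFEB vehicle, against 4032 and 1077 in limma. The 783 rises in EV doxycycline against EV vehicle became 346 with no filter, 243 with a minimum mean of 50, 459 with no variance trend, 4367 with TMM factors, 8224 with equal totals, 7258 with equal upper quartiles and 10162 on the expressed-gene scale (1208 to 12982 there with 1 library left out, 77 to 1635 on the deposited scale). Its 5396 falls became 3532 with no filter, 1883, 2323 and 1345 under the last 3 scalings, and 377 to 8149 with 1 library left out on the deposited scale. For TFEB doxycycline against TFEB vehicle the 1077 falls became 647 with a minimum mean of 50, 2133 with TMM factors, and 6673, 5061 and 4791 under the last 3 scalings. Against EV doxycycline the 6282 rises became 3072, 3900 and 3287 under those scalings, and the 1242 falls 14309, 11350 and 13289, with 3521 under TMM factors and 356 with a minimum mean of 50. Against EV vehicle the 1968 falls became 4824, 3832 and 3743. In the interaction the 6755 rises became 2608, 3189 and 2547, and the 1422 falls 13398, 11629 and 13356, with 5590 under TMM factors, 826 with no filter, 220 with a minimum mean of 50 and 910 with no variance trend. Depth limits GDF15 and NUPR1 most, whose control values rest on few reads.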

Other observations

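In the EV line the ER unfolded protein response genes outside the ATF4 arm were lower with doxycycline than with vehicle. On the deposited scale 19 of 19 fell in EV doxycycline against EV vehicle (median log2 change -2.01), and on the expressed-gene scale 14 fell and 0 rose (median -0.73). Of all genes tested, 23.3% and 5.82% were called lower on these scales, and 3.39% and 43.9% higher. HSPA5, the main ER chaperone, had 1936 ± 1034 normalized reads in EV doxycycline and 9134 ± 4360.4 in EV vehicle (SD, n = 3 each), a log2 change of -2.30 ± 0.59 (limma adjusted p = 0.00748). It was -1.02 ± 0.16 on the expressed-gene scale (limma adjusted p = 0.000655). ATF5 had 5595, 2325 and 1195 normalized reads in EV doxycycline libraries and 11237, 21105 and 7477 in EV vehicle, which do not overlap, a log2 change of -2.28 ± 0.60 (limma adjusted p = 0.00877) and of -0.99 ± 0.19 on the expressed-gene scale (0.00251). Among the hypoxia-induced genes 10 fell and 0 rose on the deposited scale, and 6 fell and 3 rose on the expressed-gene scale.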
